A study of Homo sapiens with 12 samples.

Results

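SRF and 8 genes of the actin cytoskeleton were followed in HUDEP-2 cells, an immortalized human erythroid precursor line whose growth depends on the Kit receptor. The genes were chosen by name as SRF and actin cytoskeleton targets. They comprised SRF itself, the actins ACTB and ACTG1, the tropomyosins TPM1 and TPM4, the crosslinker FLNA, and the adhesion proteins VCL, ZYX and FHL2. All 9 were found by symbol among the 54628 genes of the count table, and all 9 passed the filter on low counts that left 15492 genes for testing.

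SRF (serum response factor) is a transcription factor that binds the CArG box, a short A/T-rich DNA element flanked by CC and GG. It works with cofactors of 2 kinds. The ternary complex factors (ELK1, ELK3, ELK4) are phosphorylated by ERK downstream of growth factor receptors such as Kit, and the myocardin-related factors (MRTFA, MRTFB) are held in check by unpolymerized actin, so that the actin cytoskeleton feeds back on the genes that build it. In red cell precursors, actin and tropomyosin are also components of the membrane skeleton.

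The 12 RNA-seq libraries formed 4 groups of 3 replicates. All cells had been infected with lentivirus carrying dCas9-KRAB, the repressor used for CRISPR interference, and sorted for GFP, and they carried either a scrambled guide (sgControl) or a guide aimed at an element near the EGR1 gene (sgEGR1). Cells of all groups were starved for 5 h and then received PBS or 50 ng/mL of SCF (stem cell factor, the ligand of Kit) for 1 h. The sgControl and sgEGR1 cells are separately transduced populations of a single line, so a difference due to the guide and a difference between the populations cannot be told apart, and only the cell population as a whole was measured, so that fewer cells of a type and less RNA per cell cannot be told apart either.

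Libraries held 23.5 to 32.04 megacounts. Levels are given as CPM (the gene's share of a library's counts expressed per megacount, after TMM scaling of library sizes). The cell type marker values of this paragraph are the exception and use library totals without TMM scaling. The 12 erythroid markers were all present at a summed 25890 to 29252 CPM, whereas fibroblast and smooth muscle markers, which define the cells in which these genes are best known, summed to 0.570 CPM or less with 4 of 6 at 0 in every library. Lymphoid markers (3 of 3) were at 0 throughout. Of the megakaryocyte markers 4 of 5 (PF4, PPBP, GP9 and GP1BA) and of the macrophage markers 4 of 5 (CD14, CSF1R, LYZ and CD163) averaged under 1 CPM, and these lists summed to 13.0 to 35.6 CPM and 7.93 to 10.7 CPM. The remaining markers of these lists, ITGA2B and CD68, averaged at least 1 CPM. The mast cell list summed to 83.0 to 214 CPM, with CPA3 and MS4A2 averaging under 1 CPM and TPSAB1 making up the rest. EGR1, the targeted gene, reached 208, 239 and 171 CPM after SCF in sgControl cells and 40.4, 57.4 and 204 CPM in sgEGR1 cells, so the library labelled sgEGR1 SCF replicate 3 went against its label. The sgEGR1 responses of SRF, ACTB, ACTG1, TPM4, ZYX and FHL2 are therefore also given without it. The libraries numbered 1 also stood apart from the others of their groups, as described for the members further on.

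The DNA in front of the members was examined for the element that SRF binds, because several members rose together after SCF. RefSeq start sites on GRCh38.p14 gave windows of 250 bases before to 50 bases after the start for 8 of the 9 genes (14 windows). No window was available for ACTB, so its upstream DNA was not examined. A CArG box lay in at least 1 window of SRF, ACTG1, TPM4, FLNA and FHL2, that is in 5 of these 8 genes. None was found in those of ZYX, VCL and TPM1. Windows at further start sites of SRF (43172396), TPM4 (16076495 and 16077016) and FHL2 (105399667) held no box. Counted by window, 7 of the 14 held a box, against 1.29% of all 35116 windows. By gene, 1.60% of all genes with a window had one, and 1.38% of the tested ones. Overlapping windows of FHL2 share a box, which was counted in each. The members were chosen as SRF and actin cytoskeleton targets, so the comparison with all windows is a description and not a test. The stretches below lie upstream of a RefSeq start site and outside the exons of the gene named. They are read 5′ to 3′ on the strand of that gene, and capitals mark the CArG boxes.
SRF: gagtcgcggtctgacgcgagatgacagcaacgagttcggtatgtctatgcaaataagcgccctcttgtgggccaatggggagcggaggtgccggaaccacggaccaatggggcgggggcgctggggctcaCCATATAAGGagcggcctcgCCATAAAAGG
ACTG1: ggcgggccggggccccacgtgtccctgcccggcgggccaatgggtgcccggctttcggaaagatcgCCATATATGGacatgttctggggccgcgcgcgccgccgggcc
TPM4: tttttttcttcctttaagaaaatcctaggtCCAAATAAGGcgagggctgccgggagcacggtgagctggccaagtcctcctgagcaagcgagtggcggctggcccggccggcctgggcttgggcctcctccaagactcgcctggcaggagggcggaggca
FLNA: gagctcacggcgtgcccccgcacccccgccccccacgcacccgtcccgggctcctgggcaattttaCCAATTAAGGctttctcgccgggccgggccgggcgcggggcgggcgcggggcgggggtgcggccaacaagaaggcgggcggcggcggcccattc
FHL2: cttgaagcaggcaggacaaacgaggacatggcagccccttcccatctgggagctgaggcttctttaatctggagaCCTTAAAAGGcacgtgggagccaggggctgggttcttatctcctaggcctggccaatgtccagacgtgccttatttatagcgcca

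The SRF stretch (chr6:43171109-43171268, plus strand) carried 2 boxes, CCATATAAGG beginning 30 bases and CCATAAAAGG beginning 10 bases before the start site. The box of ACTG1, CCATATATGG, began 94 bases upstream of its start site (chr17:81512852-81512959, minus strand). That of TPM4, CCAAATAAGG, began 173 bases upstream (chr19:16067335-16067494, plus strand). The ACTG1 and TPM4 stretches lie inside the gene positions given below, so they are upstream of the start site used and not of the whole gene. FLNA had CCAATTAAGG 94 bases upstream (chrX:154374635-154374794, minus strand), where the opposite strand holds an exon of the gene ENSG00000285018. FHL2 had CCTTAAAAGG 85 bases upstream (chr2:105438530-105438689, minus strand), and a further box 59 bases before another of its start sites, inside an exon of a longer FHL2 transcript. The letters GCGTGGG, bound by EGR1, were found on either strand in windows of FLNA and FHL2. Of all windows 6.98% held them, as did 8.30% of all genes with a window and 12.6% of the tested ones. The match of FHL2 lay inside an FHL2 exon. TGANTCA, bound by AP-1, was found in no member window (7.71% of all windows, 9.37% of all genes with a window and 6.67% of the tested ones). Matches of letters describe these windows and do not show binding.

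SRF (chromosome 6, positions 43171269 to 43181506, plus strand) approximately doubled within the hour. In sgControl cells the replicates held 64.3, 57.0 and 60.8 CPM after PBS and 113.9, 132.2 and 127.8 CPM after SCF. In sgEGR1 cells they held 62.7, 60.1 and 57.1 CPM after PBS and 112.6, 144 and 136 CPM after SCF. The groups did not overlap, and every SCF library lay above the highest PBS library of either guide. The fitted rise was 2.05-fold in sgControl cells (95% interval 1.80 to 2.35, edgeR adjusted p 9.66e-05) and 2.18-fold in sgEGR1 cells (1.91 to 2.50, edgeR adjusted p 5.49e-05). Without sgEGR1 SCF replicate 3, the log2 fold change in sgEGR1 cells was 1.10 in place of 1.13 (edgeR adjusted p 0.000384).

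The 2 cytoplasmic actins build the filaments. ACTB (chromosome 7, positions 5526409 to 5563902, minus strand) was by far the most abundant member, at 3225, 3411 and 3294 CPM after PBS and 4039, 4431 and 4104 CPM after SCF in sgControl cells. In sgEGR1 cells it went from 3312, 3318 and 3408 CPM to 3985, 4486 and 4444 CPM, again with no overlap over all 12 libraries. A rise of modest size was thus measured with a small spread, 1.27-fold in sgControl cells (1.17 to 1.37, edgeR adjusted p 0.00501) and 1.29-fold in sgEGR1 cells (1.19 to 1.39, edgeR adjusted p 0.00334), the latter with an adjusted p of 0.0200 without sgEGR1 SCF replicate 3.

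ACTG1 (chromosome 17, positions 81509413 to 81523847, minus strand) had a larger fitted fold but a spread that hid it. Its replicates held 291, 396 and 403 CPM after PBS and 419.9, 569 and 539.6 CPM after SCF in sgControl cells, and 269, 416 and 417 CPM after PBS and 388, 605 and 585 CPM after SCF in sgEGR1 cells. Replicate 1 was the lowest library of every group, and in sgEGR1 cells the SCF library of replicate 1 lay below the PBS libraries of replicates 2 and 3. Within a replicate number, SCF over PBS was nevertheless alike, 1.44, 1.44 and 1.34 in sgControl cells and 1.44, 1.46 and 1.40 in sgEGR1 cells. The fit without the replicate number gave 1.40-fold (1.03 to 1.91, edgeR adjusted p 0.291) in sgControl cells and 1.43-fold (1.05 to 1.95, edgeR adjusted p 0.249) in sgEGR1 cells. With the replicate block, both responses were called, with log2 fold changes of 0.49 in sgControl cells (edgeR adjusted p 0.000113) and 0.52 in sgEGR1 cells (edgeR adjusted p 7.09e-05). Without sgEGR1 SCF replicate 3 and without the block, the sgEGR1 log2 fold change was 0.44 (edgeR adjusted p 0.498). Exons of ENSG00000229848 overlap ACTG1 on the opposite strand.

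Actin sequences are shared with many processed copies elsewhere in the genome, so counts can be split between them. The 13 rows named ACTBP summed to 52 to 98 counts per library, 0.0460% to 0.0707% of the ACTB count, and the 21 rows named ACTG1P to 122 to 224 counts, 0.699% to 2.73% of the ACTG1 count. How reads that match several copies were counted is not given in the sources used here. The ratio of ACTB to ACTG1 CPM was 9.62 to 12.3 in the replicate 1 libraries and 7.41 to 8.62 in the other 8 libraries.

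**Figure D1:**
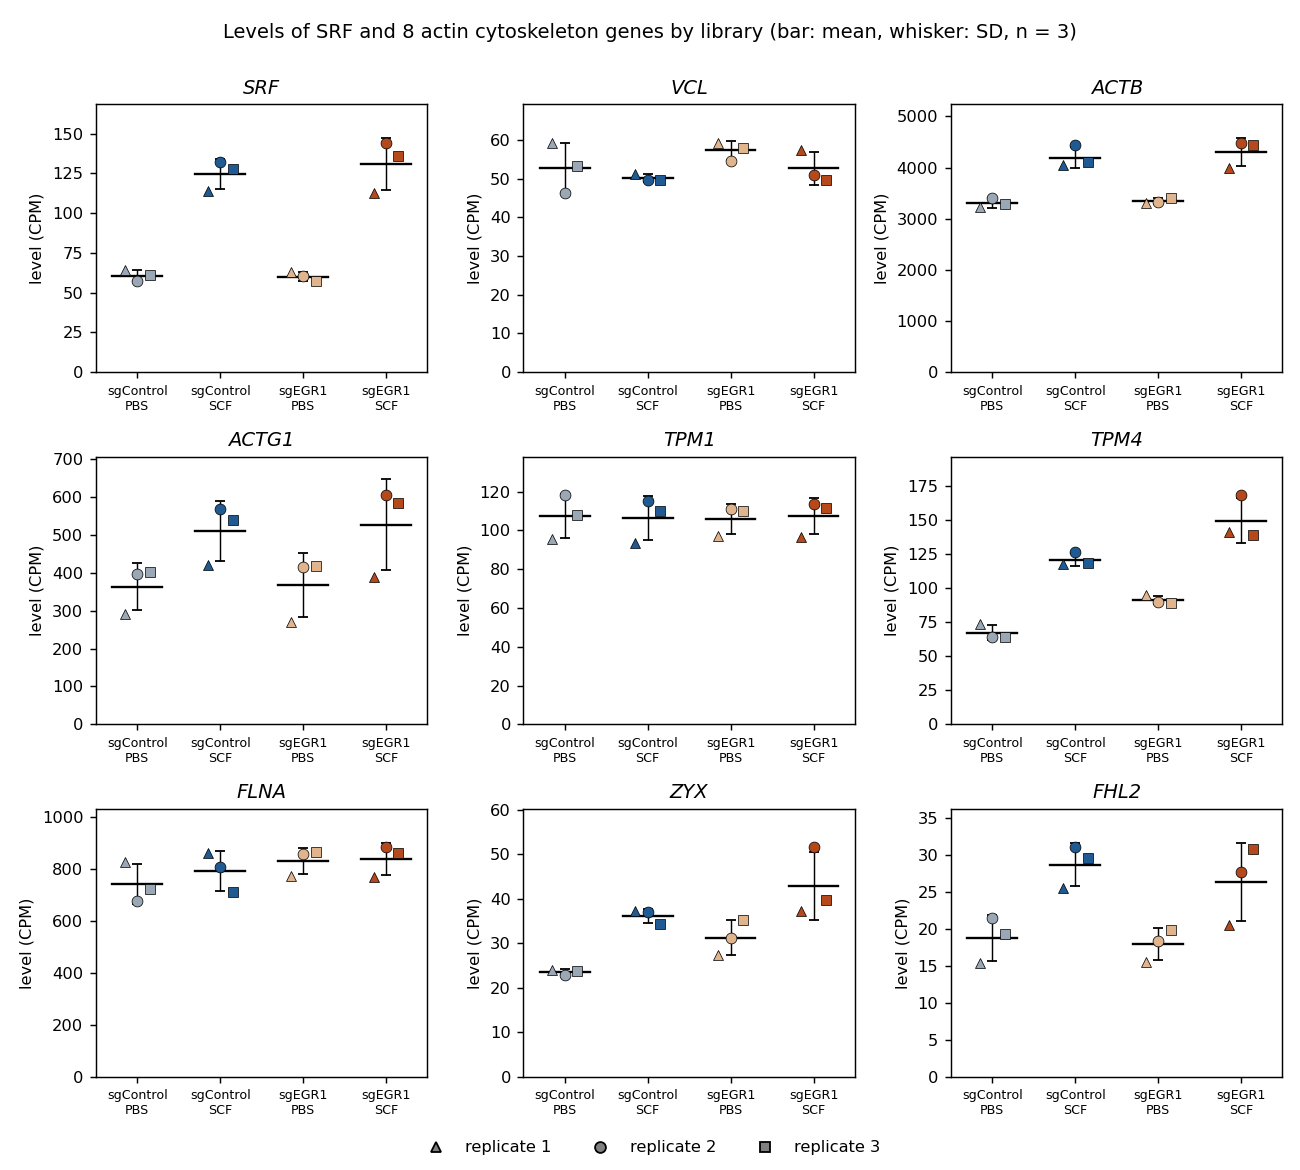
CPM of each of the 9 genes (vertical axes, from 0) in the 4 groups, with 1 symbol per library (triangle, circle and square for replicates 1, 2 and 3), a bar at the mean and whiskers for the SD (n = 3). SRF, ACTB and TPM4 have every SCF library above every PBS library, while VCL, TPM1 and FLNA overlap between treatments.

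Tropomyosins coat actin filaments and set which myosins and severing proteins can reach them, and the pair measured here behaved differently. TPM4 (chromosome 19, positions 16067021 to 16103002, plus strand) went from 73.3, 64.3 and 64.1 CPM to 117, 127 and 118 CPM in sgControl cells. In sgEGR1 cells it started from 94.7, 89.8 and 88.9 CPM and reached 141, 168 and 139 CPM. All SCF libraries again lay above all PBS libraries. The rise was 1.80-fold in sgControl cells (1.60 to 2.02, edgeR adjusted p 0.000169) and 1.64-fold in sgEGR1 cells (1.46 to 1.84, edgeR adjusted p 0.000468), and its log2 fold change in sgEGR1 cells was 0.76 (edgeR adjusted p 0.00108) without sgEGR1 SCF replicate 3. Isoforms of TPM4 were not separated by these gene counts, and exons of ENSG00000279198 overlap the gene on the opposite strand.

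TPM1 (chromosome 15, positions 63042620 to 63071915, plus strand) encodes a tropomyosin made in muscle and non-muscle isoforms and stayed between 93.5 and 118 CPM in all 12 libraries. It held 95.7, 118 and 108 CPM after PBS and 93.5, 115 and 110.1 CPM after SCF in sgControl cells, and 97.1, 111 and 109.8 CPM against 96.8, 114 and 111 CPM in sgEGR1 cells. The average SCF effect was 1.00-fold with a 95% interval of 0.902 to 1.11 (edgeR adjusted p 0.997), so a change of the size of that in TPM4 lies outside the interval. Isoforms were not separated by these gene counts, and TPM1 overlaps exons of TPM1-AS and of ENSG00000259627 on the opposite strand.

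FLNA (chromosome X, positions 154348524 to 154374634, minus strand) encodes filamin A, which crosslinks actin filaments and ties them to membrane proteins. It held 825, 677 and 721 CPM after PBS and 862, 807 and 709 CPM after SCF in sgControl cells, with 773, 858 and 863 CPM and 769, 883 and 862 CPM in sgEGR1 cells. The treatments overlapped under both guides, and the average SCF effect was 1.04-fold (0.945 to 1.14, edgeR adjusted p 0.680). Although its upstream stretch above holds a CArG box, FLNA was not called in any comparison.

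VCL (chromosome 10, positions 73995193 to 74121363, plus strand) encodes vinculin, which links integrin adhesions to actin. Its levels of 59.1, 46.2 and 53.2 CPM after PBS and 51.3, 49.7 and 49.5 CPM after SCF in sgControl cells overlapped, as did 59.3, 54.6 and 58.0 CPM and 57.5, 51.0 and 49.6 CPM in sgEGR1 cells. The average SCF effect was 0.934-fold (0.855 to 1.02, edgeR adjusted p 0.363), and the interval leaves out a rise above 1.02-fold. Some VCL exons overlap those of AP3M1 on the opposite strand.

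ZYX (chromosome 7, positions 143381295 to 143391111, plus strand) encodes zyxin, a LIM protein of focal adhesions and stress fibers that recruits actin assembly factors. In sgControl cells its 23.9, 22.8 and 23.8 CPM after PBS went to 37.2, 37.0 and 34.3 CPM after SCF, without overlap, a 1.54-fold rise (1.29 to 1.84, edgeR adjusted p 0.0143). That call rested on single libraries, since the adjusted p became 0.0647 without sgControl PBS replicate 2, 0.0582 without PBS replicate 3, 0.05004 without SCF replicate 1 and 0.0524 without SCF replicate 2, each just over the threshold, with log2 fold changes from 0.60 to 0.66 over all libraries left out. In sgEGR1 cells, 27.4, 31.1 and 35.2 CPM after PBS stood against 37.2, 51.5 and 39.7 CPM after SCF (1.37-fold, 1.15 to 1.63, edgeR adjusted p 0.0634), and the replicate block gave a call there (log2 fold change 0.45, edgeR adjusted p 0.0214). Without sgEGR1 SCF replicate 3 the log2 fold change was 0.51 (edgeR adjusted p 0.100). ZYX overlaps exons of EPHA1 on the opposite strand.

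FHL2 (chromosome 2, positions 105357712 to 105438513, minus strand) encodes a LIM-only protein that is found at adhesions and in the nucleus. It was the lowest member by CPM, with 15.4, 21.5 and 19.3 CPM after PBS and 25.5, 31.0 and 29.6 CPM after SCF in sgControl cells (1.53-fold, 1.21 to 1.95, edgeR adjusted p 0.0617). The corresponding values in sgEGR1 cells were 15.5, 18.4 and 19.9 CPM and 20.5, 27.7 and 30.8 CPM (1.47-fold, 1.15 to 1.86, edgeR adjusted p 0.0989). Groups did not overlap under either guide, but replicate 1 was the lowest library of all 4 groups. With the replicate block both responses were called, with log2 fold changes of 0.62 in sgControl cells (edgeR adjusted p 0.000367) and 0.55 in sgEGR1 cells (edgeR adjusted p 0.00103). Leaving out sgEGR1 SCF replicate 3 gave a log2 fold change of 0.43 (edgeR adjusted p 0.316), and leaving out sgEGR1 SCF replicate 1 gave 0.71 (edgeR adjusted p 0.0316). FHL2 overlaps exons of ENSG00000238273 on the opposite strand.

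Counted together, 4 of the 9 members (SRF, ACTB, TPM4 and ZYX) rose after SCF in sgControl cells, where 2.12% of all genes tested were called higher and 2.89% in either direction. With the replicate block 6 members rose in sgControl cells, beside 4.88% of all genes called higher. In sgEGR1 cells 3 rose (SRF, ACTB and TPM4), beside 1.81% of all genes called higher (2.59% in either direction), and 6 rose with the replicate block, which called 4.71% of all genes higher. No member fell by edgeR, where 0.775% of all genes did in sgControl cells and 0.788% in sgEGR1 cells, and DESeq2 called 5 members higher in each of these responses and none lower, beside 3.41% of all genes called higher in sgControl cells and 3.03% in sgEGR1 cells. The SCF libraries lay above the PBS libraries without overlap for 6 members in sgControl cells (10.4% of all genes) and 5 in sgEGR1 cells (11.2% of all genes), ACTG1 being separated in sgControl cells only. Averaged over both guides, which sets 6 SCF libraries against 6 PBS libraries, 5 members rose, beside 5.58% of all genes (9.03% in either direction, 3.45% lower), and none fell. These were SRF (2.12-fold), TPM4 (1.72-fold), FHL2 (1.50-fold, edgeR adjusted p 0.00632), ZYX (1.45-fold, edgeR adjusted p 0.00161) and ACTB (1.28-fold). Without sgEGR1 SCF replicate 3 the average log2 fold change was 0.52 for FHL2 (edgeR adjusted p 0.0181) and 0.57 for ZYX (edgeR adjusted p 0.00323).

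ACTG1 narrowly missed the threshold in that average (1.42-fold, 1.14 to 1.76, edgeR adjusted p 0.0508) and passed it in 2 of the 12 fits that leave out 1 library, without sgControl SCF replicate 1 (adjusted p 0.0404) and without sgEGR1 SCF replicate 1 (adjusted p 0.0177). In the other 10 it did not, with an adjusted p of 0.116 without sgEGR1 SCF replicate 3 and of 0.121 at most. The median log2 fold change of the 9 members was 0.50 and that of all genes tested -0.0045. As a test of each value alone, permuting the treatment labels within each guide (400 arrangements, exact, 2-sided) gave p = 0.005, the smallest value possible, for SRF, ACTB, TPM4, ZYX and FHL2. The exact permutation p was 0.035 for ACTG1, 0.155 for VCL, 0.435 for FLNA and 0.99 for TPM1. Every SCF library exceeded every PBS library for 3 members, SRF, ACTB and TPM4, as for 4.43% of all genes tested.

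**Figure D2:**
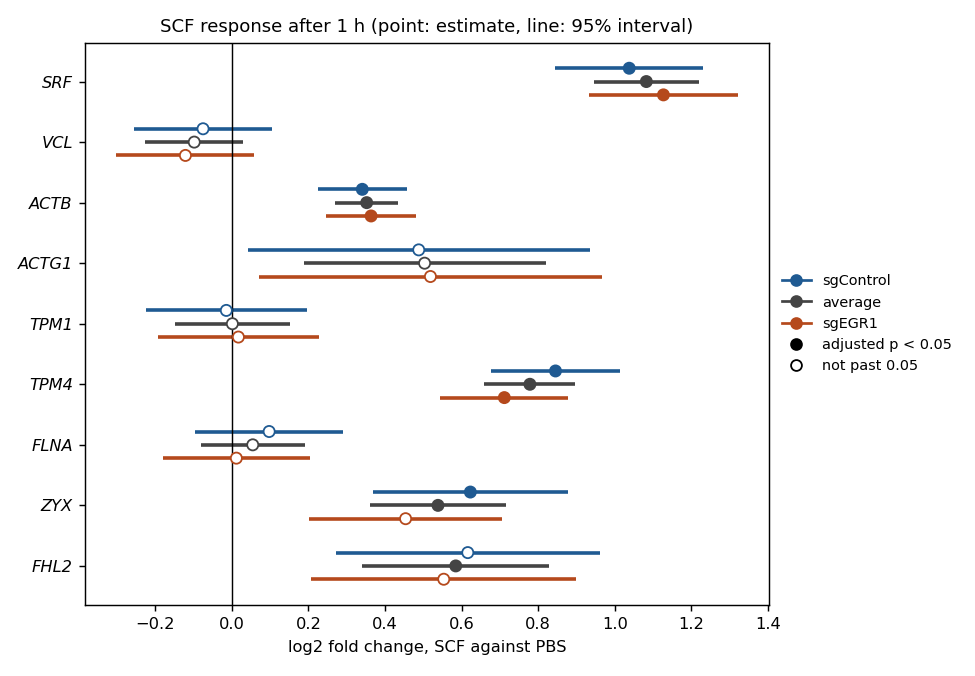
Log2 fold change after SCF against PBS (horizontal axis) of each member in sgControl cells (blue), in sgEGR1 cells (orange) and averaged over both (grey), with 95% intervals and filled symbols where the edgeR adjusted p is under 0.05. SRF lies highest near 1, TPM4 next, and VCL, TPM1 and FLNA have intervals that include 0.

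Per kilobase of the canonical transcript (RPKM), levels were compared between genes, in sgControl cells first. After PBS in sgControl cells ACTB averaged 1827 ± 51.9 RPKM (SD, n = 3) and ACTG1 189 ± 32.6 RPKM, followed by TPM1 at 88.2 ± 9.27 RPKM and FLNA at 87.1 ± 8.97 RPKM, which were not distinguishable. TPM4 came next at 27.2 ± 2.13 RPKM. SRF (14.3 ± 0.856 RPKM), FHL2 (11.8 ± 1.96 RPKM), ZYX (10.5 ± 0.267 RPKM) and VCL (9.61 ± 1.18 RPKM) closed the order, each overlapping its neighbor in the range of its libraries. After SCF the same cells held TPM4 at 48.8 ± 2.04 RPKM, SRF at 29.5 ± 2.26 RPKM, FHL2 at 18.1 ± 1.82 RPKM and ZYX at 16.2 ± 0.719 RPKM, with FHL2 and ZYX still overlapping, and VCL was now apart from ZYX at 9.13 ± 0.173 RPKM. In sgEGR1 cells ZYX had the higher mean of these 2 LIM genes, at 14.01 ± 1.76 against 11.3 ± 1.40 RPKM for FHL2 after PBS and 19.2 ± 3.44 against 16.7 ± 3.35 RPKM after SCF, again with overlapping libraries. A single transcript length per gene was used, so these levels shift where another isoform dominates.

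Between guides, TPM4 and ZYX had the largest differences among the members, both higher in sgEGR1 cells. After PBS, all 3 sgEGR1 libraries lay above all 3 sgControl libraries for both, at 88.9 to 94.7 CPM against 64.1 to 73.3 CPM for TPM4 and at 27.4 to 35.2 CPM against 22.8 to 23.9 CPM for ZYX. Such separation upward was seen in 4.65% of all genes tested. After SCF, TPM4 was again separated, at 139 to 168 CPM against 117 to 127 CPM, and ZYX barely so, at 37.21 to 51.5 CPM against 34.3 to 37.18 CPM (3.61% of all genes). Both treatments together showed this for 0.329% of all genes, 51 in number.

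No member passed the threshold in these guide comparisons by edgeR, nor did any other gene (0% called after PBS and after SCF). That includes the targeted gene EGR1, at 0.166-fold after PBS (0.0493 to 0.557, edgeR adjusted p 0.999) and 0.488-fold after SCF (0.247 to 0.965, edgeR adjusted p 0.9998). A lack of calls here therefore does not show a lack of difference. At an unadjusted p under 0.05, edgeR counted 2 members after PBS (TPM4, 1.35-fold, 1.20 to 1.52, adjusted p 0.428, and ZYX, 1.33-fold, 1.11 to 1.59, adjusted p 0.999) and 1 after SCF (TPM4, 1.23-fold, 1.10 to 1.38, adjusted p 1.00, or a log2 difference of 0.35 with adjusted p 0.520 without sgEGR1 SCF replicate 3). Of all 15492 genes tested, 715 had such an unadjusted p after PBS and 361 after SCF. DESeq2 called TPM4 after PBS (adjusted p 0.000457), 1 of 20 genes it called there, and no member among its 5 calls after SCF. Averaged over treatments, a comparison added after the values were seen, TPM4 was 1.29-fold higher in sgEGR1 cells (1.19 to 1.40, edgeR adjusted p 0.109, 0% of genes called) and ZYX 1.25-fold (1.11 to 1.42, adjusted p 0.669). For TPM4 this became a call with the replicate block (log2 difference 0.37, edgeR adjusted p 0.0126, 0.316% of all genes called) and without sgEGR1 SCF replicate 3 (0.39, adjusted p 0.0232).

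SRF differed little between guides, with a ratio of sgEGR1 to sgControl of 0.987 after PBS (0.862 to 1.13) and 1.05 after SCF (0.922 to 1.20). ACTB gave 1.01 (0.932 to 1.10) and 1.03 (0.948 to 1.11). The intervals were wider for ACTG1 (0.742 to 1.38 after PBS) and FHL2 (0.727 to 1.16 after SCF). With the replicate block, the log2 difference of ACTG1 after PBS was 0.0024 ± 0.0495 (SE) and that of FHL2 after SCF was -0.13 ± 0.0732 (SE), and neither was called by edgeR.

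**Figure D3:**
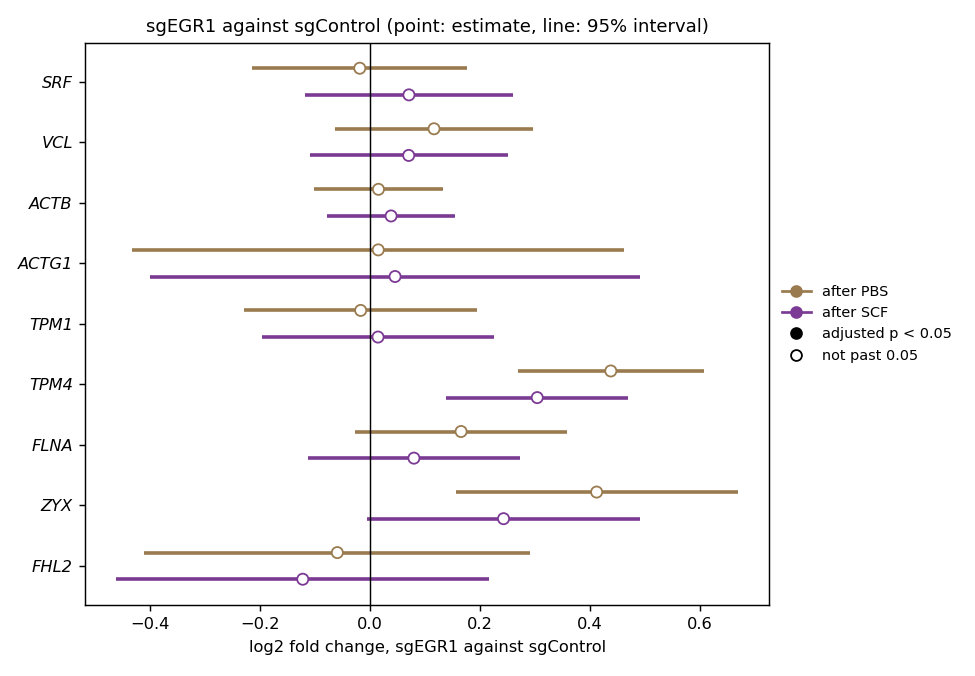
Log2 difference between sgEGR1 and sgControl cells (horizontal axis) after PBS (brown) and after SCF (purple) for each member, with 95% intervals. All symbols are open, since no edgeR adjusted p was under 0.05, and TPM4 has both intervals above 0.

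Whether the response to SCF depended on the guide was tested by subtracting the sgControl response from the sgEGR1 response. By edgeR 0 of the 9 members differed (0% of all genes called). An unadjusted p under 0.05 was reached by 0 members, beside 306 of all 15492 genes tested. DESeq2 called 0 members, beside 0.0258% of all genes. The response of SRF was 1.06 times as large in sgEGR1 cells, with an interval of 0.881 to 1.28, which covers a small loss as well as a small gain. TPM4 gave 0.912 (0.774 to 1.07) and ZYX 0.889 (0.695 to 1.14). Leaving out sgEGR1 SCF replicate 3, whose EGR1 level was that of control cells, moved the log2 difference of SRF from 0.09 to 0.06, that of TPM4 from -0.13 to -0.08 and that of FHL2 from -0.06 to -0.19, with adjusted p of 1.00 for each by edgeR.

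Libraries numbered 1 differed from those numbered 2 and 3 for several members, across all groups. With replicate 1 as a term beside the groups, 4 members were called by edgeR, beside 26.6% of all genes tested (13.1% higher and 13.4% lower in replicate 1). ACTG1 was 0.695-fold as high in replicate 1 (adjusted p 6.28e-07), FHL2 0.775-fold (adjusted p 0.000357) and TPM1 0.854-fold (adjusted p 9.34e-05), and these 3 genes had their lowest library in replicate 1 in 4 of 4 groups. VCL was 1.10-fold higher in replicate 1 (edgeR adjusted p 0.0271) and had its highest library there in 4 of 4 groups. That call was lost without any of 5 libraries (sgControl PBS replicate 1, sgEGR1 PBS replicate 2, or any sgEGR1 SCF library), with adjusted p up to 0.156. SRF, TPM4, FLNA and ZYX were not called, and ACTB, whose lowest library was also replicate 1 in 4 of 4 groups, reached an adjusted p of 0.0548. The labels give no day or batch for the numbers, and what set replicate 1 apart was not tested.

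**Figure D4:**
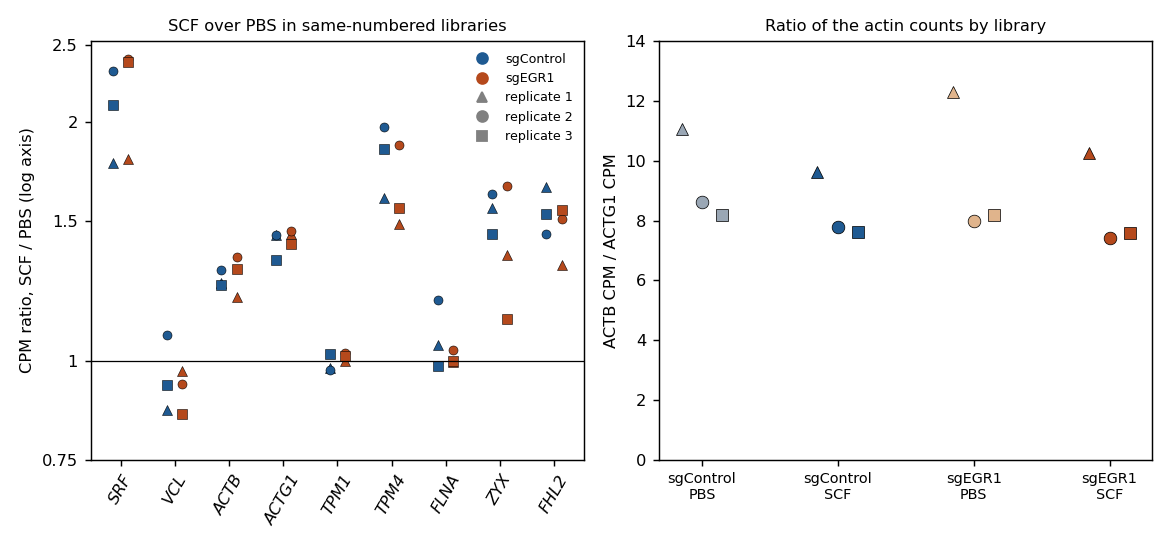
Left, SCF over PBS in CPM for libraries with the same replicate number (log axis) for each member under both guides, with 1 symbol per replicate number. Right, ratio of ACTB to ACTG1 CPM in each library, which is 9.62 to 12.3 in the 4 replicate 1 libraries (triangles) and 7.41 to 8.62 in the others.

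Beyond the members, gene lists of the same pathway were read in the average SCF response. Of the 6 SRF cofactors, 5 were tested and none rose (5.58% of all genes did), while MRTFA fell by 0.20 on the log2 scale (edgeR adjusted p 0.0213), from group means of 32.9 ± 0.672 and 36.7 ± 2.63 CPM after PBS to 30.0 ± 2.00 and 30.7 ± 0.860 CPM after SCF in sgControl and sgEGR1 cells (SD, n = 3). That call was lost when any of 5 libraries was left out (sgControl PBS replicate 3, sgControl SCF replicate 2 or 3, sgEGR1 PBS replicate 3, sgEGR1 SCF replicate 2). ELK1, ELK3, ELK4 and MRTFB were detected and not called, with log2 fold changes from -0.07 to 0.08. MYOCD, the cofactor of heart and smooth muscle, had 0 counts in every library.

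Among 25 other genes of actomyosin and adhesion known as SRF targets, 21 were tested, 5 rose (5.58% of all genes did) and none fell (3.45% of all genes did). These were CNN2 (calponin 2, an actin-binding protein, log2 fold change 0.38, edgeR adjusted p 0.00309), MYL12A (a myosin light chain, 0.30, 0.00610), WDR1 (a helper of actin disassembly, 0.21, 0.000200), VASP (which elongates filaments, 0.15, 0.0125) and TAGLN2 (transgelin 2, 0.14, 0.0252). The median log2 fold change was 0.06 over the 21 genes and -0.0045 over all genes tested. The smooth muscle gene TPM2 averaged 0.335 CPM and was not called, and MYL9, FLNC, FHL1 and CCN2 had too few counts to be tested.

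Of the 24 genes of actin turnover 5 rose and none fell, beside 5.58% of all genes called higher and 3.45% lower. Their median log2 fold change was 0.09, and that of all genes tested was -0.0045. TWF1 (twinfilin, which binds monomers and caps filament ends) rose most, by 0.42 (edgeR adjusted p 0.00212), followed by CAP1 (0.21, 0.00140), ARPC4 (0.20, 0.00464), cofilin CFL1 (0.17, 0.0184) and ARPC2 (0.12, 0.0424). The number called was 3 without sgEGR1 PBS replicate 2 and without sgEGR1 SCF replicate 2. Of 11 adhesion partners of VCL and ZYX, 9 were tested. EdgeR and DESeq2 both called 0 of them, beside 9.03% and 11.6% of all genes. The unadjusted edgeR p was under 0.05 for 1 of them and for 3514 of all 15492 genes tested. The list median was 0.02.

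**Figure D5:**
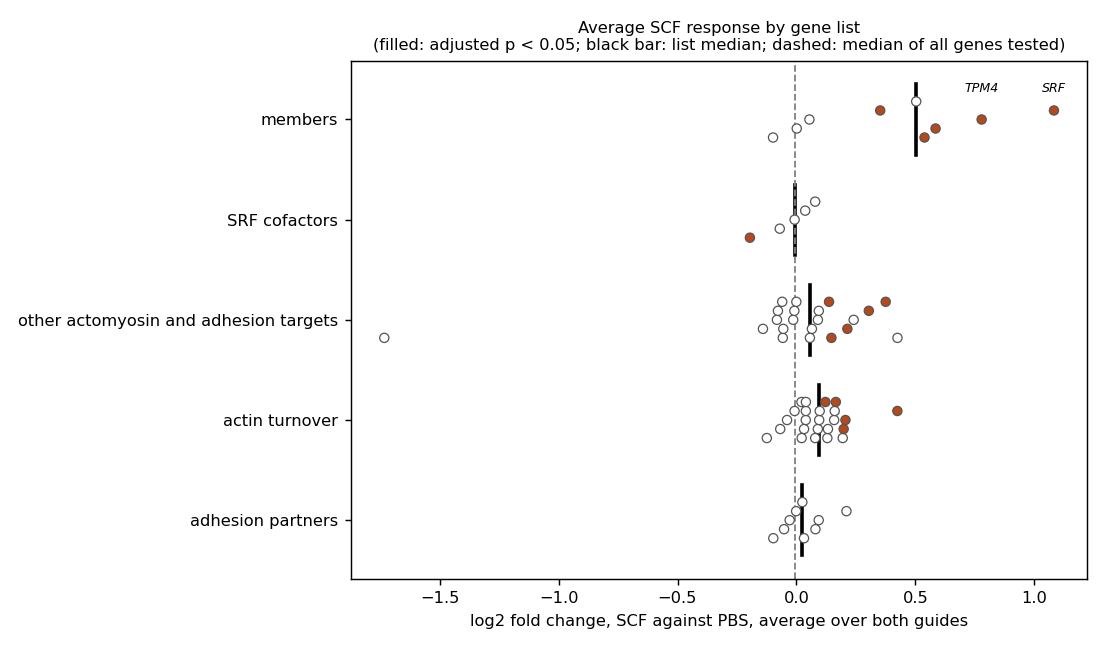
Average log2 fold change after SCF (horizontal axis) of each tested gene in the member group and in 4 gene lists, with filled symbols for an edgeR adjusted p under 0.05, a black bar at each list's median and a dashed line at the median of all genes tested. SRF at 1.08 and TPM4 at 0.78 lie farthest to the right, and the lists apart from the members have medians from -0.0077 to 0.09.

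Over the 12 libraries, members moved with SRF to different degrees. Pearson's r of log2 CPM with SRF was 0.97 for ACTB, 0.90 for TPM4, 0.84 for FHL2, 0.80 for ZYX, 0.74 for ACTG1, 0.26 for FLNA, 0.07 for TPM1 and -0.42 for VCL. These values describe 12 libraries that share the SCF contrast. Among 11170 other genes, those most like SRF were DUSP6 (r = 0.998), SZRD1 (0.984), KLF6 (0.984), FOSL1 (0.981) and CMTM6 (0.979), and DUSP6 encodes a phosphatase that limits ERK. The genes most like VCL were PTPN12 (r = 0.955), TET2 (0.925), SCAF8 (0.910), NRDC (0.906) and ASXL2 (0.901), over the same libraries.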

How the data were processed

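RNA from 12 HUDEP-2 libraries was sequenced by the authors, who aligned reads to hg38 with HISAT2 and deposited estimated counts per gene from StringTie, which are not scaled for depth or length. The columns were tied to groups through the labels, and 0 columns stayed unmapped. Those of sgEGR1 carry a guide code of their own and were assigned by elimination, as the labels name no construct other than this and the control. The study's methods describe strand-specific libraries, the labels name another kit, and whether counting used strand is not given in the sources used here, so genes with exons opposite another gene are uncertain. Every deposited value was already a whole number. EdgeR 4.0.16 in R 4.3.3 (TMM, filterByExpr, quasi-likelihood F test, 1 coefficient per group, all 12 libraries) tested 15492 of 27654 genes with counts, and calls required an adjusted p (Benjamini-Hochberg over all of them) under 0.05. The 95% intervals come from that fit and cover the spread between libraries, which may be technical, since the sources call the replicates biological without naming separate cultures. Pairs of replicates differed by 4.36 to 20.5 times the counting variance, so none was a duplicate.

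The members and gene lists were chosen with earlier results of these data known. All members are named whatever they showed, together with EGR1 and, per list, called genes averaging at least 2 CPM. A further gene list is not reported here. Similarity to SRF or VCL was Pearson's r of log2(CPM + 0.5). Residuals of same-numbered libraries correlated at 0.417, 0.0694 and 0.183 between treatments in sgControl cells and at 0.377, 0.135 and 0.126 in sgEGR1 cells. Between guides they correlated at 0.161 to 0.419. All values were positive and highest for the libraries numbered 1. The labels do not say whether the numbers pair the libraries, so a pairing rests on these data alone. DESeq2 (here version 1.42.0, the study also having used this tool), other size factors, no filter, the replicate block, a term for replicate 1, replicates 2 and 3 only and leaving out each library were alternatives. The code was tested on simulated counts. Gene positions and transcript lengths are those of GENCODE on GRCh38, and promoter windows those of RefSeq on GRCh38.p14, searched on both strands.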

Additional observations from a re-analysis of the deposited data

How the results depend on the processing

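The SCF calls of SRF, ACTB and TPM4 under both guides held under each alternative tried. Called members in sgEGR1 cells after SCF went from 3 to 5 with DESeq2, 6 with the replicate block or with a term for replicate 1, and 5 with replicates 2 and 3 only (3 to 5 leaving out 1 library, with 5 without sgEGR1 SCF replicate 1). Of all genes tested, 1.81% were called higher in sgEGR1 cells in the main fit. That share was 3.03% with DESeq2, 4.71% with the block, 5.04% with the term and 2.79% with replicates 2 and 3 only. In sgControl cells the replicate block added ACTG1 (edgeR adjusted p 0.000113) and FHL2 (0.000367). In sgEGR1 cells it added ACTG1, ZYX and FHL2, and in the average response ACTG1 (1.83e-06). The block changed no other SCF call. Between guides after PBS 0 became 1 with DESeq2, which called 0.129% of all genes there. The average guide difference went from 0 to 1 with DESeq2, the replicate block, the replicate 1 term and replicates 2 and 3 only. These fits called 0.181%, 0.316%, 0.374% and 0.0774% of all genes, in that order. Leaving out 1 library gave 0 to 1, with 1 without sgEGR1 SCF replicate 3, beside 22 of 15824 genes. With the block or the replicate 1 term, actin turnover went from 5 to 10 called genes and adhesion partners from 0 to 3, while calls over all genes went from 9.03% to 18.1% (block) or 18.5% (term), whereas leaving out 1 library gave 3 to 6 for actin turnover and 0 to 1 for SRF cofactors. Library totals without mitochondrial genes raised the mean level over 12 libraries to 104 CPM for SRF, 59.0 for VCL, 4193 for ACTB, 118 for TPM1, 119 for TPM4 and 887 for FLNA, by construction.

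Directions turned only for values near 0. TPM1 after SCF became 0.00057 in sgControl cells without a filter and -0.00073 (DESeq2 size factors) or -0.00070 (DESeq2) on average. With replicates 2 and 3 only, the guide difference was -0.00015 for ACTB after PBS and -0.0070 for TPM1 after SCF, and the response difference of FHL2 was 0.0405. Leaving out 1 library gave these ranges of log2 fold change. After SCF, VCL ranged from -0.16 to 0.017 and TPM1 from -0.087 to 0.072 in sgControl cells, TPM1 from -0.041 to 0.089 and FLNA from -0.037 to 0.073 in sgEGR1 cells, and TPM1 from -0.034 to 0.045 on average. Between guides after PBS, SRF ranged from -0.063 to 0.026, ACTB from -0.0019 to 0.036, ACTG1 from -0.12 to 0.19, TPM1 from -0.092 to 0.057 and FHL2 from -0.18 to 0.0496. After SCF, SRF ranged from -0.0075 to 0.17, ACTG1 from -0.081 to 0.22, TPM1 from -0.074 to 0.084 and FHL2 from -0.25 to 0.0302. The response difference ranged from -0.14 to 0.043 for VCL, -0.0068 to 0.077 for ACTB, -0.15 to 0.21 for ACTG1, -0.053 to 0.11 for TPM1 and -0.19 to 0.089 for FHL2. The causes were not tested.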

Other observations

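The CArG box was also counted over the genes called in the average SCF response, as a description with no test. Of 865 genes called higher by edgeR, 692 had a promoter window, and 21 of these (3.03%) held a box. The share was 1.83% (7 of 382) of genes called lower and 1.25% (124 of 9918) of genes not called. Besides SRF, TPM4 and FHL2, the genes that rose and held a box included EGR1 (log2 fold change 5.44, edgeR adjusted p 1.61e-05) and EGR2 (2.40, 3.54e-06), zinc finger factors of the immediate early class, MYADM (0.97, 1.38e-05), ATXN1 (0.95, 0.0155) and MIDEAS (0.70, 1.75e-06). CNN2, one of the other actomyosin genes described above, was also among them (0.38, 0.00309). ZNF436-AS1 held a box and fell by 1.08 on the log2 scale (0.000312).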
